A study of Homo sapiens with 16 samples.

Results

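Aminoacyl-tRNA synthetases are the enzymes that attach each amino acid to its own tRNA. The 35 synthetase genes described here are 19 that serve the cytosol and 16 that serve mitochondria. They were chosen by gene symbol, with earlier results of these data known. They were found among the 60662 genes of the deposited tables by their Ensembl identifiers with the version dropped. Symbols ending in 2 mark the mitochondrial enzymes. RNA-seq was done on Jurkat E6-1 cells. These are an established line of human T cells, which the labels describe as WT and as coming from a lymphoma. The 8 control libraries came from untreated cells at 0 h. The 8 peroxide libraries came from cells moved to phosphate-buffered saline (PBS) with 10 µM hydrogen peroxide and collected at 4 h. Time, saline and peroxide therefore differ together between the groups, and untreated cells kept in saline for 4 h are not analysed here.

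Cells keep separate sets of these enzymes for protein synthesis in the cytosol and in mitochondria, and both sets are encoded in the nucleus. KARS1 and GARS1 supply both compartments from one gene each, which is why neither has a mitochondrial partner gene. Several cytosolic enzymes sit together in the multi-synthetase complex, while others work outside it. When charged tRNA runs short, the kinase GCN2 (EIF2AK4) reduces general translation and the transcription factor ATF4 is made. ATF4 is known to act on amino acid transporter genes, amino acid synthesis genes and several cytosolic synthetase genes through C/EBP-ATF response elements.

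The core of that element was looked for in the promoters, since several cytosolic members share a pattern across the libraries that is described further on. The motif was TGATGNAA, read on either strand, in windows from 250 bases before to 50 bases after each start site (RefSeq promoter table, GRCh38.p14). A window was found for 30 of the 35 members. The motif stood in 7 of 16 cytosolic members with a window and in 1 of 14 mitochondrial members with a window, YARS2. Over all genes in the table it stood in 4.46% of 27305 genes, and in 3.62% of 35116 windows. The 8 matches are printed 5′ to 3′ on the strand of the gene, with the motif in capitals and 30 bases before it and 8 after it; TTGCATCA and TTTCATCA are the motif read on the opposite strand.
TARS1, chr5:33440937-33440982, plus strand: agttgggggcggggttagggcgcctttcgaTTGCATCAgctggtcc
CARS1, chr11:3057410-3057455, minus strand: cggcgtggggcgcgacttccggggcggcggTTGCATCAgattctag
GARS1, chr7:30594815-30594860, plus strand: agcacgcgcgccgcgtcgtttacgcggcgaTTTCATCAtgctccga
NARS1, chr18:57621807-57621852, minus strand: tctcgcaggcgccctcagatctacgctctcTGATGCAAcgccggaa
MARS1, chr12:57488034-57488079, plus strand: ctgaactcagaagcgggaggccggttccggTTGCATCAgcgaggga
IARS1, chr9:92293695-92293740, minus strand: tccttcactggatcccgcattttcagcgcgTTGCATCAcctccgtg
AARS1, chr16:70289678-70289723, minus strand: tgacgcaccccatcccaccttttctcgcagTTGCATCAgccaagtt
YARS2, chr12:32756079-32756124, minus strand: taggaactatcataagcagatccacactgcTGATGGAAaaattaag
The same 8 letters, TTGCATCA, stood in TARS1, CARS1, MARS1, IARS1 and AARS1, and NARS1 held their reverse complement. Counted from the start site, the first motif base lay between -33 and 15 in TARS1, CARS1, GARS1, NARS1, MARS1 and IARS1. In AARS1 and YARS2 the motif lay farther upstream, starting at -187 and -197. A match describes letters in a window; it does not show a bound site.

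Each group held 4 libraries in each of 2 batches, which were read from the names of the deposited tables. The sources used here do not say what the batches are. Libraries held 5556553 to 15720881 reads in genes. Levels are given as CPM, the reads of a gene scaled to a fixed total of reads in genes, after TMM, edgeR's correction for library composition. Of 14092 genes that passed the filter on low counts, 24.1% were called higher after peroxide and 24.3% lower at an adjusted p under 0.05, with a median log2 fold change of -0.01. With plain total counts in place of TMM, the split was 2822 higher and 4375 lower, against 3391 and 3419. All 8 T cell markers checked passed the filter, with control means of 114 to 785 CPM. Of 4 B cell markers, CD79A had a control mean of 40.7 CPM and the others were under 1 CPM. Summed over 4 myeloid markers, the level was 0.125 to 0.943 CPM in controls and 4.02 to 12.4 CPM after peroxide, from CD14 and ITGAM, with LYZ and FCGR3A near 0; its part in the results was not tested. The share of counted reads that did not align to a single place moved with the groups. In batch 2 it was 31.8% to 33.7% in controls and 35.7% to 45.8% after peroxide, with no overlap. In batch 1 it was 33.3% to 39.8% after peroxide and 30.2% to 32.9% in controls other than control 1, which had 47.2%. Its part in the results was not tested beyond leaving out the highest library of each group, control 1 and peroxide 5. Without both, 6 cytosolic members were called higher and 2 lower (FARSA was lost, edgeR adjusted p = 0.0587), and 3 mitochondrial members were called higher and 7 lower. In bulk RNA, fewer cells that express a gene and less RNA per cell cannot be told apart.

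As a class, the mitochondrial genes held a smaller share of all reads in genes after peroxide in both batches, while the cytosolic genes held a larger share in batch 1 and not in batch 2. The mitochondrial genes together held 0.0756% to 0.0912% of the reads in controls and 0.0669% to 0.0727% after peroxide, so every control library lay above every peroxide library. On the TMM scale the same sum was 707 to 950.4 CPM in controls and 653 to 778 CPM after peroxide. On that scale the groups overlapped when the batches were pooled and did not overlap within either batch. The cytosolic genes held 0.472% ± 0.0194 of the reads in batch 1 controls and 0.560% ± 0.0282 in batch 1 peroxide libraries (SD, n = 4 each). In batch 2 these shares were 0.710% ± 0.0285 and 0.686% ± 0.0508, which is a difference smaller than the spread. On the TMM scale the batch 2 sums were 6683 ± 204 CPM in controls and 6727 ± 466 CPM after peroxide, a difference of opposite sign that was also smaller than the spread. The controls of batch 2 therefore already stood above the peroxide libraries of batch 1. The ratio of cytosolic to mitochondrial reads was 5.41 ± 0.157 in batch 1 controls, 7.81 ± 0.278 in batch 1 peroxide libraries, 9.21 ± 0.448 in batch 2 controls and 9.91 ± 0.749 in batch 2 peroxide libraries (SD, n = 4 each). These class sums weight abundant genes most and were not tested.

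**Figure D1:**
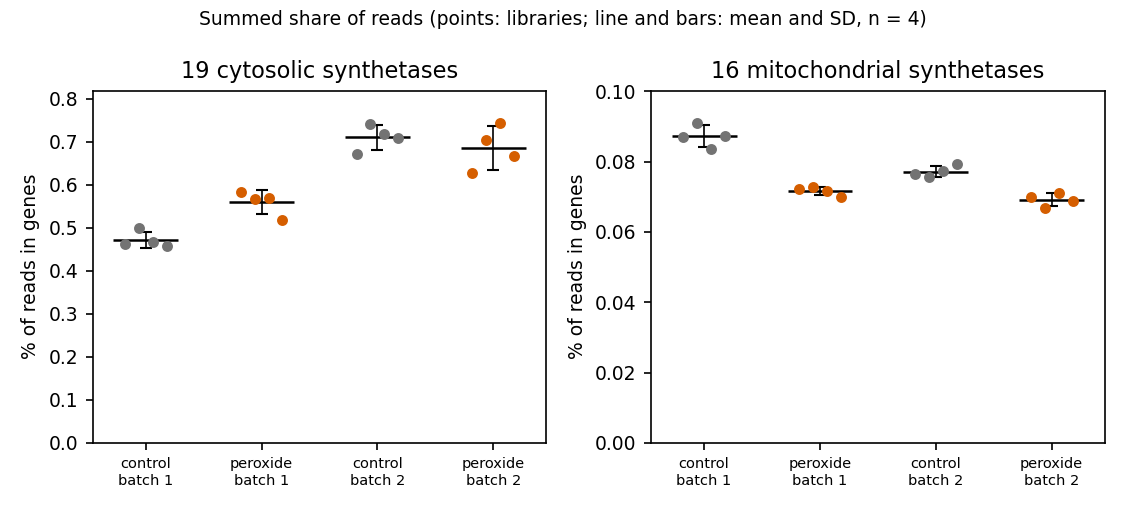
Share of reads in genes (%, y axis from 0) held by the 19 cytosolic (left) and 16 mitochondrial (right) synthetase genes in each library, by group and batch; lines and bars are means and SD of 4 libraries. The mitochondrial share is lower after peroxide in both batches, while the cytosolic share is higher after peroxide in batch 1 only and is already 0.710% on average in batch 2 controls.

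Per length, cytosolic genes were the more abundant class. The control level divided by the length of all exons of the gene (GENCODE 29) had a median of 55.3 CPM per kb over the cytosolic genes, from 13.3 (HARS1) to 124 (FARSA). Over the mitochondrial genes the median was 12.5 CPM per kb, from 0.385 (VARS2) to 44.5 (IARS2).

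Gene by gene, the cytosolic class did not move as a block. All 19 genes passed the filter; 6 rose, 3 fell and 10 were not called, with a median log2 fold change of 0.07 and a range of -0.29 to 0.72. The shares of 24.1% and 24.3% called over all genes are the background for these counts. The genes that rose were TARS1, CARS1, GARS1, NARS1, YARS1 and QARS1, and those that fell were AARS1, FARSA and LARS1. Among the mitochondrial genes, all 16 passed; 3 rose, 7 fell and 6 were not called, with a median of -0.07 and a range of -1.27 to 0.72. PARS2, AARS2, MARS2, EARS2, HARS2, TARS2 and LARS2 fell, and SARS2, VARS2 and WARS2 rose. In 1 member, TARS1, every peroxide library lay above every control, against 6.76% of all genes tested. In 1 member, PARS2, every peroxide library lay below every control, against 4.49%.

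**Figure D2:**
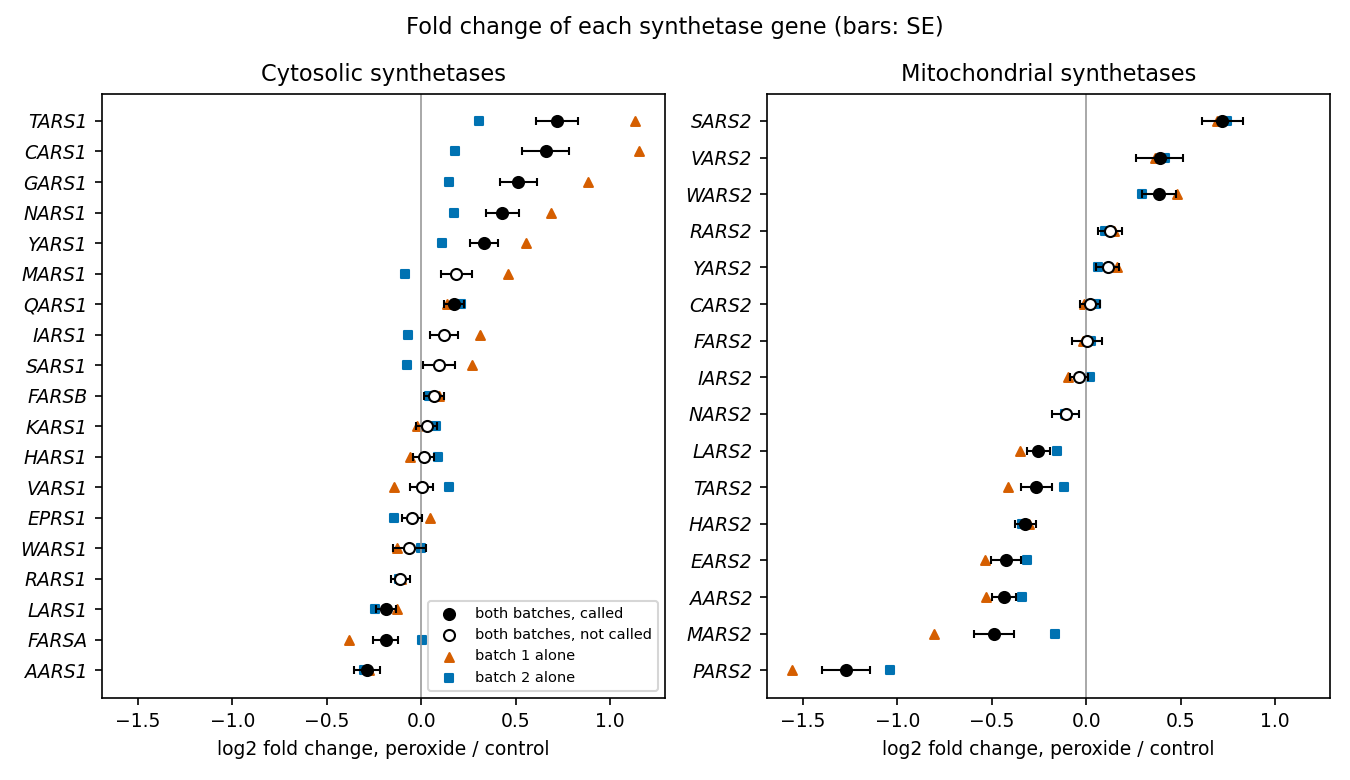
Log2 fold change, peroxide over control, of each cytosolic (left) and mitochondrial (right) synthetase gene, ordered by size. Circles with SE bars are both batches together with batch as a term (filled, called at an adjusted p under 0.05; open, not called), triangles are batch 1 alone and squares batch 2 alone; for TARS1, CARS1, GARS1, NARS1, YARS1 and MARS1 the triangle lies far to the right of the square.

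The largest rises in the cytosolic class were in enzymes that work outside the multi-synthetase complex. TARS1 (ENSG00000113407.13), the threonyl-tRNA synthetase, had a lowest, median and highest level of 264, 375 and 432 CPM in controls and 493, 571 and 709 CPM after peroxide. Its groups did not overlap, and the lowest peroxide libraries were those of batch 2. Its log2 fold change was 0.72 ± 0.11 (SE; edgeR quasi-likelihood test, Benjamini-Hochberg adjusted p = 1.77e-05), a 1.64-fold rise. CARS1 (ENSG00000110619.17), the cysteinyl-tRNA synthetase, had 97.0, 180.3 and 285 CPM in controls and 196, 262 and 337 CPM after peroxide. The overlap came from the batch 2 controls, at 249 to 285 CPM, while the batch 1 controls lay at 97.0 to 111 CPM. The rise was 0.66 ± 0.12 (edgeR adjusted p = 0.000151).

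GARS1 (ENSG00000106105.14), the glycyl-tRNA synthetase of both compartments, had 272, 409 and 580.5 CPM in controls and 508, 567 and 665 CPM after peroxide. Again only batch 2 controls reached into the peroxide range. GARS1 rose by 0.51 ± 0.10 (edgeR adjusted p = 0.000192). NARS1 (ENSG00000134440.12), which charges asparagine, had 253, 307 and 399 CPM in controls and 355, 396 and 497 CPM after peroxide, and rose by 0.43 ± 0.09 (edgeR adjusted p = 0.000353). YARS1 (ENSG00000134684.10), which charges tyrosine, had 299, 420.0 and 554 CPM in controls and 422, 503 and 629 CPM after peroxide, and rose by 0.33 ± 0.08 (edgeR adjusted p = 0.00105). In both genes the control libraries that overlapped with the peroxide libraries were those of batch 2.

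AARS1 (ENSG00000090861.15), the alanyl-tRNA synthetase, moved against these. Its levels spread widely in each group, with 256, 465 and 740.5 CPM in controls and 202, 373 and 592 CPM after peroxide. The spread was the batches: batch 2 libraries of both groups lay above all batch 1 libraries of both groups. With batch as a term AARS1 fell by 0.29 ± 0.07 on the log2 scale (edgeR adjusted p = 0.00157), with -0.27 ± 0.10 in batch 1 alone and -0.30 ± 0.09 in batch 2 alone. FARSA (ENSG00000179115.11), the catalytic subunit of the phenylalanyl-tRNA synthetase, had 274, 286 and 363 CPM in controls and 237, 265 and 294 CPM after peroxide. FARSA fell by 0.19 ± 0.07 (edgeR adjusted p = 0.0232), a call lost without peroxide 1 or without peroxide 4 (-0.17 and -0.17, edgeR adjusted p up to 0.0551). FARSB, the other subunit of that enzyme, was not called (0.07 ± 0.05).

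Of the 7 cytosolic synthetases of the multi-synthetase complex, 1 rose and 1 fell, with a median of 0.03. Of the 12 outside it, 5 rose and 2 fell, with a median of 0.08. Over all genes tested, 24.1% were called higher and 24.3% lower. The difference between members inside and outside the complex was not tested. QARS1 (ENSG00000172053.18), which charges glutamine, had 247, 254 and 287 CPM in controls and 259, 292 and 338 CPM after peroxide. Its groups overlapped, and it rose by 0.17 ± 0.05 (edgeR adjusted p = 0.0115). That call was lost with total counts in place of TMM and with no filter on low counts. LARS1 (ENSG00000133706.18), which charges leucine and is known as a leucine sensor for mTORC1, had 286, 338 and 372 CPM in controls and 257, 289.6 and 333 CPM after peroxide. Its groups overlapped and it fell by 0.19 ± 0.05 (edgeR adjusted p = 0.00745). MARS1 (ENSG00000166986.15), which charges methionine, had 338, 466 and 669.9 CPM in controls and 429.9, 529.6 and 654 CPM after peroxide. Its peroxide range lay inside its control range, and it was not called over both batches (0.19 ± 0.08, edgeR adjusted p = 0.0634). MARS1 was called without control 6, peroxide 5, peroxide 6 or peroxide 8, with values of 0.21 to 0.22.

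The other cytosolic members had small differences that were not called. EPRS1, IARS1, RARS1 and KARS1 of the complex had log2 fold changes of -0.05, 0.12, -0.11 and 0.03. RARS1 was called lower without control 3 (-0.13), with total counts in place of TMM (-0.17) and by DESeq2 (-0.12). HARS1, SARS1, VARS1 and WARS1 outside it had 0.01, 0.10, 0.00 and -0.06. Within batch 1 alone, IARS1 (0.31 ± 0.09) and SARS1 (0.27 ± 0.09) were called higher, and in batch 2 alone both had -0.07 and were not called.

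The response differed between the batches in 7 of the 19 cytosolic genes, tested gene by gene and not as a class. In batch 1 alone, 8 of the 19 genes were called higher and 2 lower, with a median of 0.09, beside 20.4% and 17.2% of all genes tested. In batch 2 alone, 2 were called higher (TARS1 and QARS1) and 2 lower (AARS1 and LARS1), with a median of 0.04, beside 19.4% and 19.1%. The batch 2 values of CARS1, GARS1, NARS1 and YARS1 were 0.18, 0.15, 0.17 and 0.11, none of them called, against 1.15, 0.88, 0.68 and 0.55 in batch 1. QARS1 (0.13) and LARS1 (-0.13) were not called in batch 1 alone. The difference itself was tested with the interaction of batch and group. It was called for 8 of the 35 members (7 cytosolic and MARS2), beside 4.88% of all genes tested in either direction. The fold change was smaller in batch 2 by 0.98 ± 0.12 for CARS1, 0.83 ± 0.13 for TARS1 and 0.74 ± 0.11 for GARS1 (SE, log2 scale; edgeR adjusted p = 8.61e-05, 0.000731 and 0.000653). It was smaller by 0.55 ± 0.11 for MARS1, 0.51 ± 0.13 for NARS1 and 0.45 ± 0.11 for YARS1 (edgeR adjusted p = 0.0072, 0.031 and 0.029). FARSA went the other way by 0.38 ± 0.10 (edgeR adjusted p = 0.0344), since its fall was seen in batch 1 (-0.38 ± 0.09) and not in batch 2 (0.00 ± 0.06). Without control 1 and peroxide 5, a check added after the data were seen, 4 of these 8 were called: CARS1, TARS1, GARS1 and MARS1. The count was 4 without peroxide 5 alone, and 5 without control 1, control 4, control 5 or control 6.

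In the 6 cytosolic genes with a smaller change in batch 2, the batches differed more in the controls than in the peroxide libraries. In CARS1 the level was 97.0 to 111 CPM for the controls of batch 1 and 249 to 285 CPM for those of batch 2, a difference of 1.34 ± 0.09 on the log2 scale. After peroxide its batches lay closer together, at 196 to 248 and 275 to 337 CPM. For GARS1 the batch 1 controls had 272 to 318 CPM and those of batch 2 had 499 to 580.5 CPM, with 508 to 593 and 562 to 665 CPM in the peroxide libraries. The controls differed by 0.90 ± 0.08, and the peroxide libraries by 0.17, which was not called. TARS1 had 264 to 339 and 412 to 432 CPM in the controls of batches 1 and 2, and 569 to 709 and 493 to 581 CPM in the peroxide libraries. The order of its batches was thus opposite in the 2 groups. MARS1 had 338 to 359 and 573 to 669.9 CPM in the controls and 429.9 to 516 and 543 to 654 CPM in the peroxide libraries. Its controls of batch 2 lay above all 4 peroxide libraries of batch 1.

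**Figure D3:**
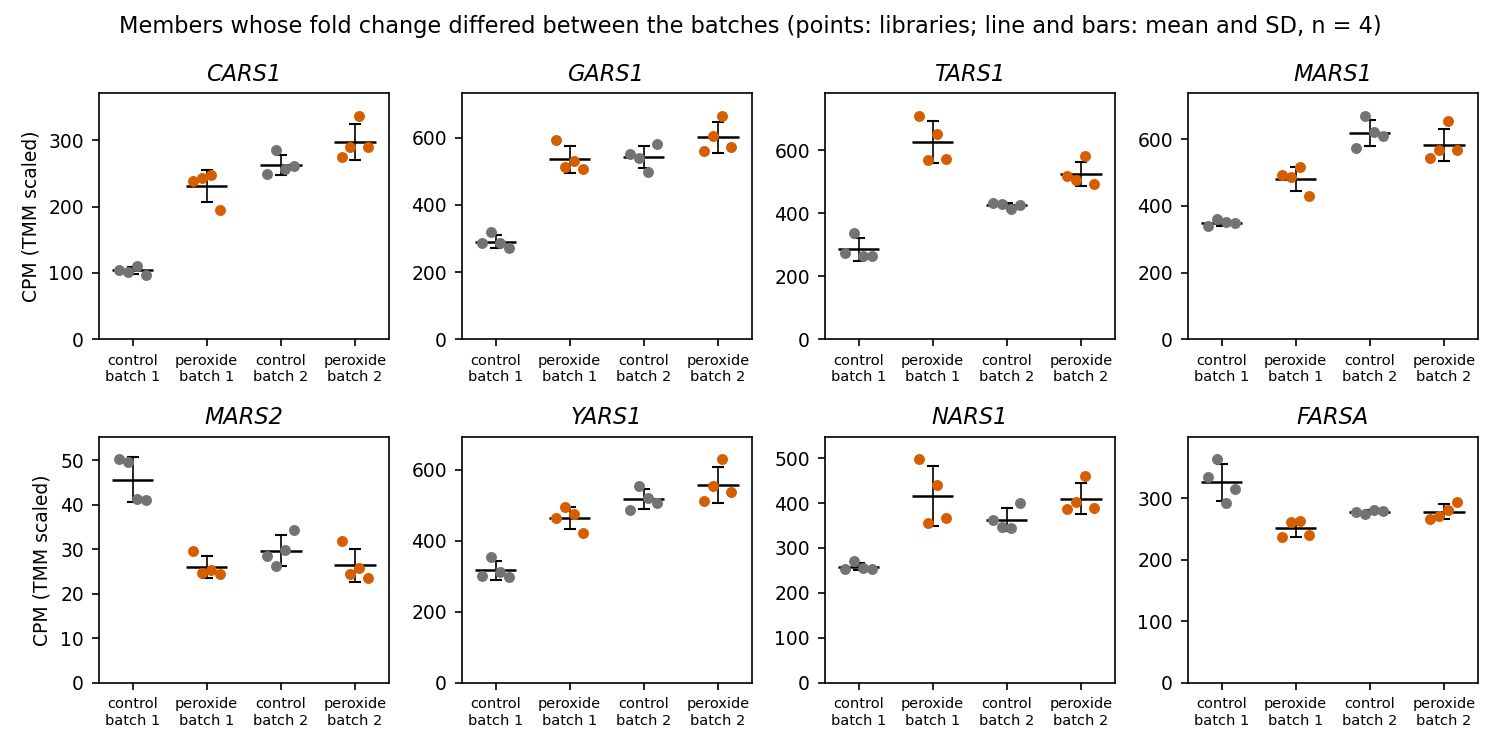
CPM (TMM scaled, y axes from 0) of the 8 members whose fold change differed between batches, by group and batch; points are libraries, lines and bars means and SD of 4. In CARS1, GARS1, TARS1, MARS1, YARS1 and NARS1 the controls of batch 2 stand above those of batch 1 while the peroxide libraries lie closer together, and in MARS2 and FARSA the controls of batch 1 are the high ones.

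Tested within the controls, 11 of 19 cytosolic members were called higher in batch 2 than in batch 1 and 6 lower, with a median log2 difference of 0.49. Over all genes tested, 22.1% were called higher and 20.5% lower. The largest of these differences were in CARS1, SARS1 (1.28) and AARS1 (1.25), followed by GARS1, MARS1 (0.82), YARS1 (0.71), IARS1 (0.64), TARS1 (0.58), WARS1 (0.57), NARS1 (0.49) and LARS1 (0.26). Of the mitochondrial members, 1 (NARS2, 0.32 ± 0.10) was called higher and 9 lower, with a median of -0.34. Within the peroxide libraries, 7 cytosolic members were higher in batch 2 and 6 lower (median 0.14), and 3 mitochondrial members were higher and 7 lower (median -0.26), beside 17.9% higher and 20.0% lower over all genes. These batch contrasts use the same libraries as the peroxide contrasts and are no separate evidence.

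The promoter motif was tabulated beside these calls after they were seen, so the counts are a description and no separate evidence. Whether the motif had a part in these differences was not tested. Of the 11 cytosolic members higher in batch 2 controls, 9 had a promoter window and 7 of these held the motif; the exceptions were SARS1 and WARS1. Of the 7 other cytosolic members with a window, 0 held it. All 5 cytosolic members with a window whose fold change was smaller in batch 2 held it (CARS1, TARS1, GARS1, NARS1 and MARS1). IARS1 and AARS1 also held it, with no interaction called, and AARS1 fell after peroxide in both batches. Of the 5 cytosolic members with a window that rose after peroxide, 4 held it and QARS1 did not.

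Of the 7 mitochondrial synthetases that fell, all 7 were called lower in batch 1 alone and 4 in batch 2 alone (PARS2, AARS2, EARS2 and HARS2), beside 17.2% and 19.1% of all genes tested. The counts called higher in this class were 2 in batch 1 and 1 in batch 2, beside 20.4% and 19.4%, and the medians were -0.10 and -0.05. PARS2 (ENSG00000162396.6), the mitochondrial prolyl-tRNA synthetase, had 7.97, 11.1 and 13.6 CPM in controls and 2.75, 4.73 and 6.26 CPM after peroxide. Its groups did not overlap, and its level after peroxide was 0.415 times that of controls (log2 fold change -1.27 ± 0.13, edgeR adjusted p = 4.25e-08). PARS2 was a low gene, with 887 reads summed over the controls and 310.0 over the peroxide libraries. AARS2 (ENSG00000124608.5), which charges alanine, had 76.7, 93.2 and 115 CPM in controls and 51.5, 71.2 and 78.9 CPM after peroxide. Only batch 2 controls came down into the peroxide range. AARS2 fell by 0.44 ± 0.06 (edgeR adjusted p = 8.56e-06).

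EARS2 (ENSG00000103356.16), whose product also charges the mitochondrial glutamine tRNA with glutamate, had 42.3, 60.1 and 84.1 CPM in controls and 35.5, 44.0 and 53.4 CPM after peroxide. It fell by 0.42 ± 0.08 (edgeR adjusted p = 0.00016), and batch 2 controls overlapped with the peroxide libraries. HARS2 (ENSG00000112855.17), which charges histidine, had 44.1, 50.1 and 56.9 CPM in controls and 33.3, 39.8 and 45.0 CPM after peroxide. It fell by 0.32 ± 0.06 (edgeR adjusted p = 6.37e-05), by 0.31 in batch 1 alone and 0.34 in batch 2 alone, and its groups overlapped only slightly. In GENCODE 29, HARS2 shares 437 exon bases with HARS1, its head-to-head neighbour, and 15.8% of its exon bases with any gene. HARS1 was not called, at 78.8 to 142 CPM in controls and 83.2 to 128 CPM after peroxide.

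MARS2 (ENSG00000247626.5), which charges methionine, had 26.2, 37.7 and 50.3 CPM in controls and 23.5, 25.0 and 31.8 CPM after peroxide. It fell by 0.49 ± 0.11 over both batches (edgeR adjusted p = 0.000705), by 0.81 ± 0.11 in batch 1 and with a value of -0.16 ± 0.11, not called, in batch 2. The difference between batches was 0.64 ± 0.16 (edgeR adjusted p = 0.0283), and the high libraries were the batch 1 controls, at 41.1 to 50.3 CPM. LARS2 (ENSG00000011376.12) had 68.3, 84.1 and 105 CPM in controls and 57.7, 70.2 and 84.2 CPM after peroxide, and fell by 0.25 ± 0.06 (edgeR adjusted p = 0.00149). TARS2 (ENSG00000143374.17) had 49.4, 57.2 and 60.6 CPM in controls and 33.1, 49.3 and 57.3 CPM after peroxide, and fell by 0.26 ± 0.08 (edgeR adjusted p = 0.0122). LARS2 and TARS2 overlapped between groups, and neither was called in batch 2 alone (-0.16 and -0.12).

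**Figure D4:**
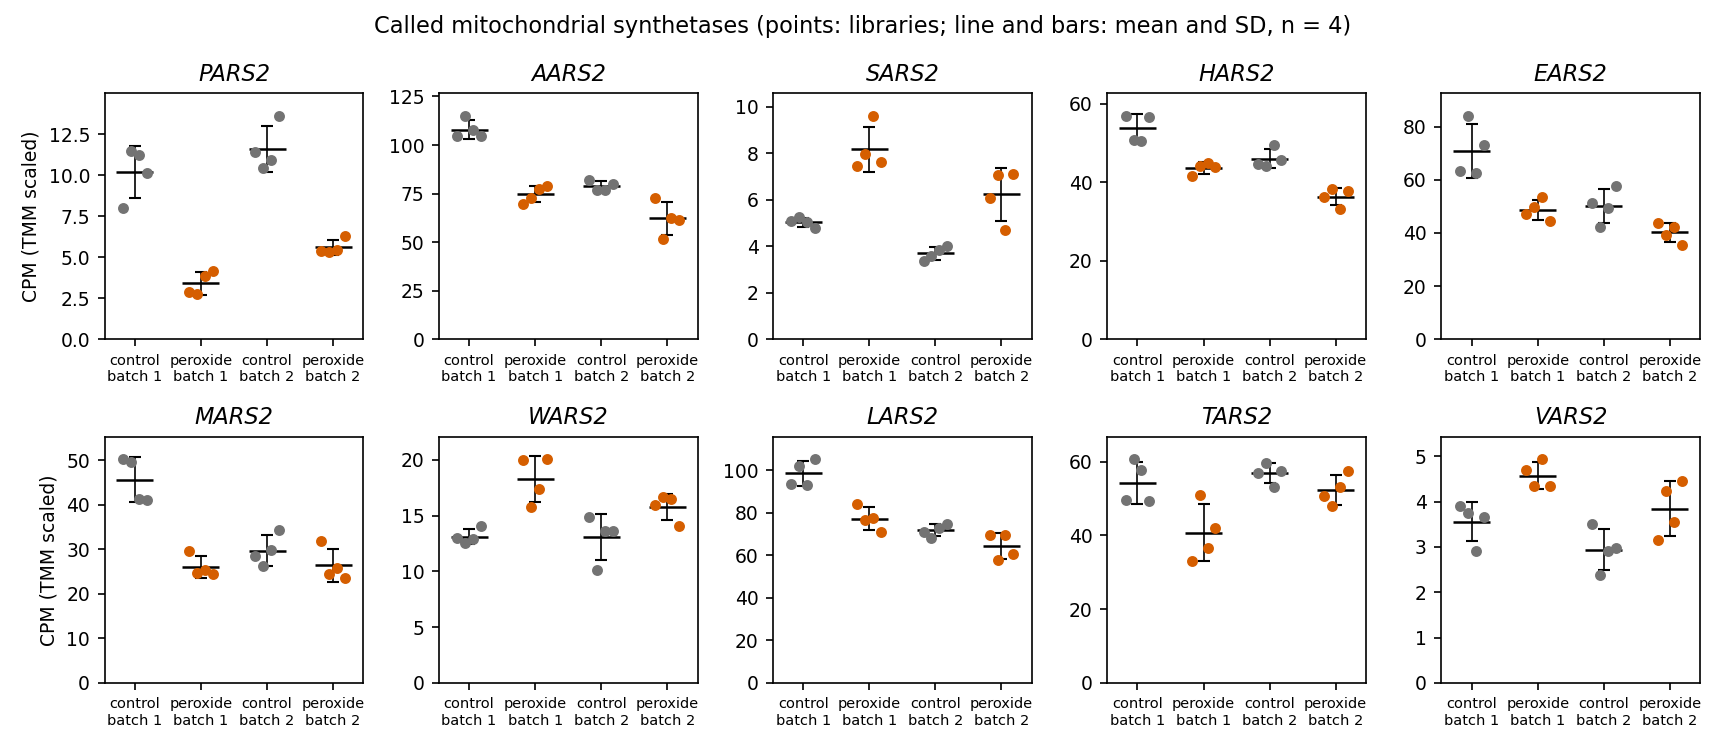
CPM (TMM scaled, y axes from 0) of the 10 called mitochondrial synthetases in each library, by group and batch, ordered by adjusted p; lines and bars are means and SD of 4 libraries. PARS2, AARS2, HARS2 and EARS2 are lower after peroxide in both batches, SARS2 is higher in both, and MARS2 is separated mainly by its batch 1 controls.

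The 3 mitochondrial members that rose had the lowest control levels per length in the class, at 0.385 (VARS2), 1.35 (SARS2) and 3.4 (WARS2) CPM per kb. SARS2 (ENSG00000104835.14), which charges serine, had 3.38, 4.39 and 5.25 CPM in controls and 4.69, 7.28 and 9.61 CPM after peroxide. Its groups overlapped between batches and not within either batch. SARS2 rose by 0.72 ± 0.11 (edgeR adjusted p = 1.47e-05), by 0.69 in batch 1 alone and 0.75 in batch 2 alone. In GENCODE 29, 57.0% of the exon bases of SARS2 also belong to other genes (AC011455.2 and MRPS12), and reads there may not be counted to SARS2 at all. WARS2 (ENSG00000116874.11), which charges tryptophan, had 10.1, 13.3 and 14.9 CPM in controls and 14.1, 16.6 and 20.0 CPM after peroxide, and rose by 0.38 ± 0.09 (edgeR adjusted p = 0.0014). VARS2 (ENSG00000137411.18), which charges valine, had 2.38, 3.24 and 3.90 CPM in controls and 3.15, 4.34 and 4.94 CPM after peroxide. Both genes overlapped between groups. VARS2 rose by 0.39 ± 0.13 (edgeR adjusted p = 0.0136). That call was seen in neither batch alone and was lost with no filter on low counts. Of the exon bases of VARS2, 22.0% are shared with GTF2H4. In these genes the effect of shared exons was not tested.

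The 6 mitochondrial members not called had values of -0.11 (NARS2), -0.04 (IARS2), 0.00 (FARS2), 0.02 (CARS2), 0.11 (YARS2) and 0.13 (RARS2). IARS2 was the most abundant mitochondrial member, with control libraries from 152 to 217 CPM and peroxide libraries from 156 to 211 CPM.

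Within a library, the ratio of a cytosolic enzyme to its mitochondrial partner does not depend on the scaling. Ratios were taken for the 13 amino acids whose partner symbols differ only in a final 1 or 2. Their mean log2 ratio of reads was higher after peroxide in 9 and lower in 4. The median difference was 0.15 (0.26 in batch 1 and 0.05 in batch 2). FARSA, FARSB and EPRS1 were not paired with FARS2, EARS2 and PARS2. Phenylalanine, glutamate and proline therefore have no ratio here. The separate log2 fold changes were -0.19 (FARSA), 0.07 (FARSB), 0.00 (FARS2), -0.05 (EPRS1), -0.42 (EARS2) and -1.27 (PARS2). The ratio for threonine, TARS1 to TARS2, was 2.20 to 2.95 in controls and 3.10 to 4.42 after peroxide, a mean difference of 0.99, and the ranges did not overlap. For asparagine, NARS1 to NARS2, it was 2.41 to 2.92 and 2.93 to 3.62, a mean difference of 0.54, with ranges that lay just apart. The difference was 0.68 for methionine and 0.65 for cysteine, with overlapping ranges and values of 1.26 and 1.17 in batch 1 against 0.09 and 0.13 in batch 2. The ratios that were lower were those of serine (-0.62), tryptophan (-0.45), valine (-0.37) and arginine (-0.24). In 3 of these 4, the mitochondrial partner was a member that rose. These ratios are a description and were not tested.

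Around the synthetases, the genes most clearly higher were those of the amino acid response. Of 10 such genes, listed with earlier results known, 9 rose and 0 fell, beside 24.1% and 24.3% of all genes tested. Their median log2 fold change was 1.53, and PHGDH, an enzyme of serine synthesis, was not called. In batch 1 alone 9 were called higher, with a median of 2.42, beside 20.4% of all genes tested. In batch 2 alone 6 were called higher, with a median of 0.59, beside 19.4%. ATF4, the transcription factor at the centre of this response, had 461 to 535 CPM in controls and 959 to 1438 CPM after peroxide, with no overlap, and rose by 1.17 ± 0.07 (edgeR adjusted p = 1.43e-11). ATF4 was alike in the controls of both batches (difference 0.03 ± 0.08, not called). The amino acid transporter gene SLC38A2 rose by 1.55 ± 0.13 (edgeR adjusted p = 5.18e-09) and the stress transcription factor gene DDIT3 by 3.95 ± 0.32 (edgeR adjusted p = 1.62e-09). For DDIT3 the rise was 5.52 in batch 1 alone and 2.84 in batch 2 alone. In this list, 9 of 10 genes were higher in batch 2 controls than in batch 1 controls, beside 22.1% of all genes tested. The median difference of the list was 2.62. The interaction was called for 7, all with a smaller change in batch 2, beside 4.88% of all genes in either direction. In GENCODE 29, DDIT3 shares 355 exon bases with its neighbour MARS1; how reads there were counted was not tested.

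In the list for sensing of uncharged tRNA, the 2 genes tested were called lower, beside 24.3% of all genes tested. EIF2AK4, the kinase that binds uncharged tRNA, had 102 to 129 CPM in controls and 77.7 to 104 CPM after peroxide, and fell by 0.30 ± 0.06 (edgeR adjusted p = 0.000123). GCN1, its activator at the ribosome, fell by 0.20 ± 0.05 (edgeR adjusted p = 0.00315). IMPACT, the third gene of that list, is listed at 0 in all 16 libraries. Of the 3 scaffold proteins of the multi-synthetase complex, AIMP1 rose from 90.2 to 110.3 CPM in controls to 115 to 164 CPM after peroxide, with no overlap (0.36 ± 0.06, edgeR adjusted p = 5.18e-05). AIMP2 (-0.18) and EEF1E1 (0.14) were not called.

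Elongation factor 1, which takes charged tRNA to the cytosolic ribosome, rose in all 3 genes tested: EEF1D by 0.44, EEF1B2 by 0.40 and EEF1A1 by 0.34. The shares of 24.1% called higher and 24.3% called lower over all genes are the background for the counts in this paragraph. EEF1G is listed at 0 in all 16 libraries. Mitochondrial translation factors moved little, with 1 of 8 higher (MTRF1, 0.20) and 1 lower (GFM1, -0.18). Of 4 helpers of mitochondrial charging, MTFMT, which formylates the initiator methionyl-tRNA, had 21.7 to 26.2 CPM in controls and 17.1 to 21.3 CPM after peroxide. MTFMT fell by 0.32 ± 0.07 (edgeR adjusted p = 0.000955), and QRSL1, GATB and GATC of the glutaminyl-tRNA amidotransferase were not called. Among 5 genes of editing and selenocysteine charging, PSTK rose by 0.34, and AARSD1, DTD2 and SEPSECS fell by 0.51, 0.44 and 0.37. In batch 1 alone only DTD2 was called (-0.57), with -0.21 for AARSD1 and -0.05 for SEPSECS. In batch 2 alone AARSD1 (-0.86) and SEPSECS (-0.68) were called lower and PSTK (0.38) higher. The interaction was called for 0 of the 5. Among genes of tRNA supply, the nuclear tRNA exporter gene XPOT rose by 0.21 and TSEN54, a subunit gene of the tRNA splicing endonuclease, fell by 0.18.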

How the data were processed

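The authors deposited a table of raw read counts by gene for each library. The tools named in the submitters' processing notes are STAR 2.7.1a and HTSeq 0.6.1, with the hg19 build; the counting mode, strand setting and annotation release are not stated there or elsewhere in the labels. Reads of overlapping genes are therefore uncertain. In every library, 5 entries without a gene name held 43.5% to 57.6% of counted reads; these were left out of library sizes and tests. Symbols came from a gene name table, which matched 60402 of 60662 identifiers.

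Counts were filtered with filterByExpr on the groups, scaled with TMM and tested over 14092 genes with edgeR 4.0.16 (R 4.3.3, quasi-likelihood test, batch and group as terms, Benjamini-Hochberg adjustment), after the code was tested on simulated data. Calls required an adjusted p under 0.05. Each SE was derived from the fold change and the F value of its test (absolute log2 fold change over root F). Single batches were fitted alone. Alternatives included DESeq2 1.42.0, other scaling and filters, no batch term, a replicate block and each library left out.

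Values are given for every called member, every member with a called interaction, and pathway genes from lists; part of the tRNA supply list, with its counts, is not reported here. The members and lists were chosen with earlier results of these data known. The labels call the libraries biological replicates but do not say that they came from separate cultures, so p-values measure the spread between these libraries. Libraries of the same batch and group differed by a chi-square per degree of freedom of 2.75 to 15.9, so none was counted as a duplicate. Libraries with the same replicate number did not deviate together (correlations of -0.15 to 0.17, 2 of 8 over 0.1).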

Additional observations from a re-analysis of the deposited data

Results flagged for a closer look

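KARS1 had 440.4 CPM in control 2, apart from the other 7 controls, which lay between 286 and 353 CPM; in such a check about 1 group in 20 stands out by chance. The fold changes of 8 members differed between batches by the interaction test of edgeR. Batch 2 minus batch 1, on the log2 scale, the differences were -0.98 (CARS1), -0.83 (TARS1), -0.74 (GARS1), -0.55 (MARS1), -0.51 (NARS1), -0.45 (YARS1), 0.38 (FARSA) and 0.64 (MARS2). The calls of CARS1, TARS1, GARS1 and MARS1 held in all 20 alternatives run for the interaction. Those of MARS2 held in 15, NARS1 and YARS1 in 12 each and FARSA in 9. None of these alternatives addressed the exon bases that MARS1 shares with its neighbours.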

How the results depend on the processing

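In batch 2 alone, 2 cytosolic members were called higher (6 over both batches), 1 mitochondrial member was called higher (3) and 4 lower (7), with 4 libraries per group in place of 8. FARSA had a value of 0.0019 there (edgeR adjusted p = 0.984), against a fall over both batches. Without the batch term, 0 cytosolic members were called lower (3 with it), and AARS1, LARS1, FARSA, CARS1, YARS1, LARS2 and TARS2 lost their calls. AARS1, LARS1 and FARSA then had values of -0.30, -0.19 and -0.19, against -0.29, -0.19 and -0.19 with the term. With total counts in place of TMM the cytosolic median was 0.0067 (0.07 with TMM), and the mitochondrial median was -0.13. DESeq2 called 6 cytosolic members higher and 4 lower, 3 mitochondrial members higher and 7 lower, and an interaction in 10 members. DESeq2 and the fit with no filter on low counts tested 38177 genes, whose median log2 fold changes were 0.16 and 0.10 against -0.01. With the replicate block in place of the batch term, 6 cytosolic members were called higher and 3 lower, and 3 mitochondrial members higher and 7 lower, so the block changed no count. Leaving out each library in turn gave 6 to 7 cytosolic members higher, 2 to 4 lower, 3 mitochondrial members higher, 7 lower and 4 to 9 members with a called interaction. Without control 1 and peroxide 5 together, 4 members had a called interaction. TARS1, PARS2, AARS2, EARS2, HARS2 and SARS2 kept their calls in all 24 alternatives. Depth limits the low genes: PARS2, SARS2 and VARS2 had 260.0 to 887 reads summed over the 8 controls.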
